A study of Rattus norvegicus with 4 samples.

Results

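The proteasome and ubiquitin system genes are read here on 4 two-colour cDNA arrays of rat liver. They are the 79 of 7688 spots whose single listed symbol names a proteasome subunit, activator or assembly factor (Psma to Psmg), an E1, E2 or numbered ligase (Uba, Ube), a ubiquitin-specific protease or C-terminal hydrolase (Usp, Uch), an F-box protein, a cullin, or Ecpas. The 79 spots carry 50 cDNA clones of 49 genes, and 44 clones of 43 genes had a ratio on all 4 arrays and were tested. No spot of an E1 or a C-terminal hydrolase was among them. One match, Psmc3ip, is a cofactor of DNA recombination and not itself one of the proteasome ATPases.

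Each array set total liver RNA of 1 female Fischer rat given 50 mg per kg of ciprofibrate daily for 60 days (channel 1) against one pool of liver RNA from 5 control rats (channel 2). Ciprofibrate is a fibrate, an agonist of the nuclear receptor PPARα and a peroxisome proliferator in rodents. Rats are not numbered in the labels, which speak of 1 of 4 treated animals per array. Arrays were therefore treated as different rats, and if some shared a rat the p-values measure only technical variation between them. The spread between control rats enters no test, since their pool is a single sample. Ages are not in the labels.

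The proteasome is the barrel-shaped protease that degrades proteins tagged with ubiquitin. A core particle of alpha and beta rings holds the active sites, and a regulatory particle with a ring of ATPases recognises, unfolds and feeds in the substrate. Ubiquitin is passed from an E1 to an E2 enzyme and then, with the help of an E3 ligase such as the cullin complexes that hold F-box or other adaptor proteins, to the substrate, and deubiquitinating proteases take it off again. In liver this system sets the lifetime of many enzymes and of regulatory proteins.

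Values are log2 ratios with the median of the array subtracted, given as mean ± SD over 4 arrays. A call is an adjusted p under 0.05 in limma's moderated test of the mean against 0, with Benjamini-Hochberg adjustment over all 4704 tested clones. Neither dyes nor the direction of the ratio are stated. Positive values are likely higher in treated liver. The basis is that treated RNA is channel 1 and that, of 17 tested genes known as targets of peroxisome proliferators, 11 had a positive and 6 a negative mean (10 to 7 without replicate 1, and 12 to 5 without replicate 2). The place of a spot on the slide also moved with its ratio. In a layout inferred from the values, the left printing blocks exceeded the right ones by 0.20, 0.12, 0.36 and 0.53 (log2, medians) on replicates 1 to 4. Each member's call is therefore given with the value left when a smooth surface over the slide was subtracted. Among the 17 target genes 5 were positive calls and 1 was negative, beside 13.6% and 15.0% of all clones. With the surface subtracted, 3 of the 5 positive calls held and the negative one did not. There 1 other target gene was a negative call. Replicate 2 stood apart, with Pearson correlations of 0.46 to 0.54 with the other arrays over 6370 spots, against 0.68 to 0.76 among those. In bulk RNA, fewer cells of a type and less RNA per cell cannot be told apart.

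Of the 44 tested clones, 6 were positive and 6 negative calls and 32 were not called. This is 27.3% of the members, near the 28.6% of all clones that were called, 13.6% as positive and 15.0% as negative. The members lay between -1.77 and 0.50 with a median of -0.09, against a median of -0.01 over all clones, and 38 of 44 were within 0.5 of 0. With the position surface subtracted, 1 was a positive and 5 were negative calls, beside 2.85% and 11.3% of all clones. There 4 of the 6 negative calls held, each on a clone with a single spot, and no positive one did. All 4 arrays had one sign in 21 members (47.7%), beside 52.8% of all clones. The counts moved with single arrays, to 1 positive and 6 negative without replicate 1, 4 and 9 without replicate 2, and 0 and 4 without replicate 3 or replicate 4 (limma). Over all clones the positive and negative shares moved too, to 6.53% and 8.23%, 18.48% and 18.97%, 2.10% and 6.84%, and 2.83% and 7.47% without replicates 1 to 4.

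**Figure D1:**
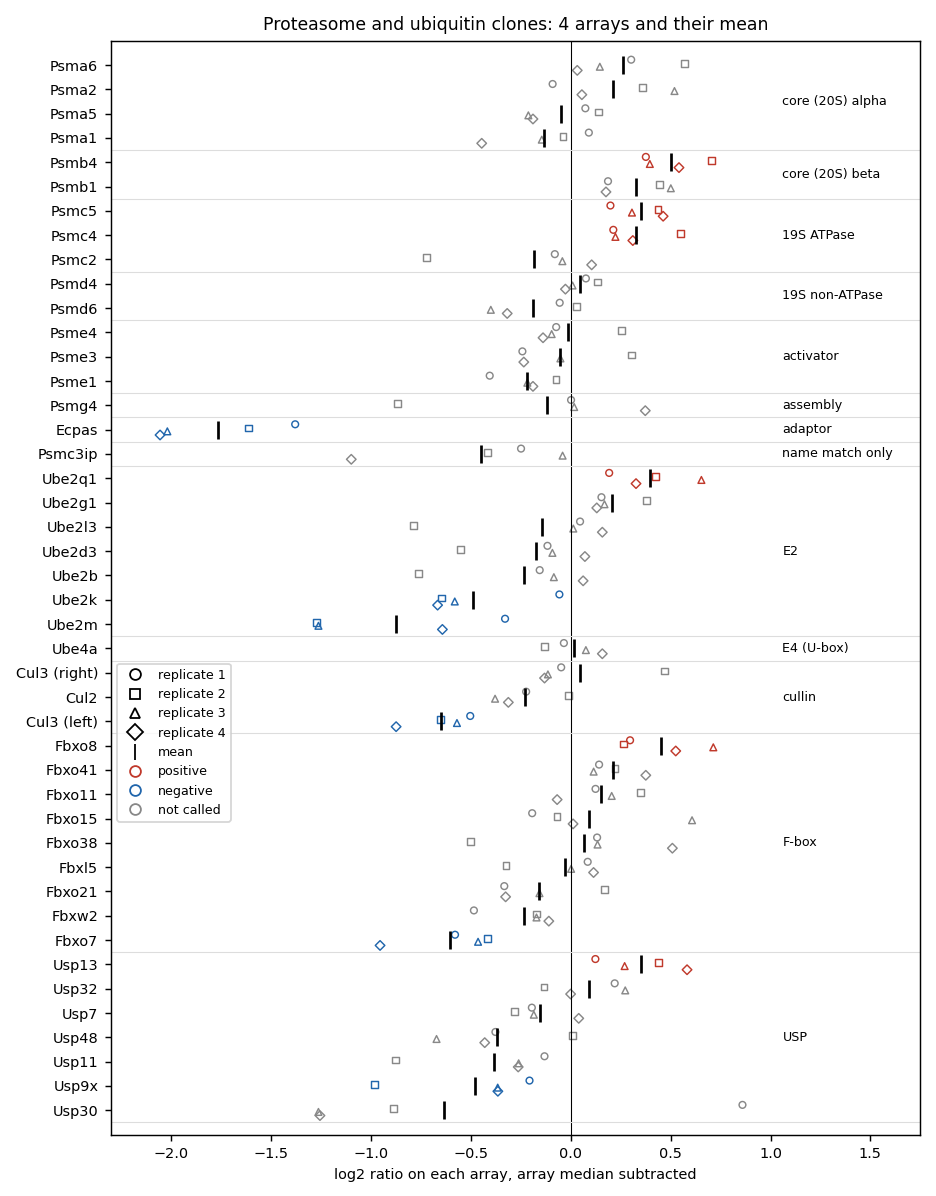
Log2 ratio of each of the 44 tested member clones on each array (open symbols, one shape per replicate) and their mean (black bar), grouped by role, with positive calls in red, negative calls in blue and clones not called in grey. Ecpas stands alone with a mean of -1.77, and the other means lie between -0.88 and 0.50.

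Among the 44 tested clones the adaptor Ecpas had the mean furthest from 0. Ecpas binds the proteasome and tethers it to other structures of the cell. Its ratios were -1.38, -1.61, -2.02 and -2.05 on replicates 1 to 4. Each of these lay below the lowest clone value of any other tested member on any array, -1.27 for Ube2m on replicate 2. The mean of -1.77 ± 0.33 (SD, n = 4) was a 3.40-fold difference (limma adjusted p = 0.000374), the 9th lowest mean of 4704 clones and the 3rd lowest of the 2707 with 1 symbol. With the position surface subtracted it was -1.46 ± 0.14 (limma adjusted p = 0.000619), and leaving out any 1 array gave means from -1.89 to -1.67 (adjusted p from 0.000804 to 0.00611). Ecpas rests on a single spot, printed in the right blocks, where 22.1% of all clones were negative calls.

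Among the other 2706 clones with 1 symbol, 5 lay nearest to Ecpas over the 4 arrays by root mean square distance. Nearest was Bst2, an interferon-induced membrane protein, at a distance of 0.27 (log2) and a mean of -1.63 ± 0.14. Rab38, a small GTPase of vesicle traffic, followed at 0.36, Akt2, a kinase of insulin signalling, at 0.37, the membrane skeleton protein Add1 at 0.39 and Mplkip at 0.43. The clones of these 5 genes were all printed in the right blocks.

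The proteasome's own subunits had small ratios. Of 11 tested clones of the core and regulatory particles, 3 were positive calls, none was negative and 8 were not called, beside background shares of 13.6% and 15.0%. Their median was 0.21, and 7 of the 11 means were above 0. The medians of the 11 on replicates 1 to 4 were 0.09, 0.36, 0.15 and 0.06, above 0 on each array and highest on replicate 2. With the surface subtracted the median was 0.15 with 9 of 11 means above 0, 1 positive call and none negative. Unadjusted limma p-values under 0.05 came from 4 of the 11, all positive, and from 16 of the 44 members. The share of all clones under that threshold was not counted, and 28.6% already passed the adjusted one. Neither count can therefore be read as an excess.

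In the core particle, Psmb4, a non-catalytic subunit of the inner beta ring, had the highest mean of all members. Its ratios were 0.38, 0.70, 0.40 and 0.54 on replicates 1 to 4, positive on each array, with a mean of 0.50 ± 0.15 (SD, n = 4) or 1.42-fold (limma adjusted p = 0.0137). With the surface subtracted it was 0.28 ± 0.25 (adjusted p = 0.116), and leaving out replicate 3 (0.54, adjusted p = 0.0544) or replicate 4 (0.49, adjusted p = 0.0558) ended the call. Psmb1, the other beta subunit measured, was at 0.19, 0.45, 0.50 and 0.18. It too was above 0 on each array and did not pass, at 0.33 ± 0.17 (limma adjusted p = 0.0512). The outer alpha ring, which gates the barrel, gave no call among 4 tested subunits. Psma6 was at 0.30, 0.57, 0.15 and 0.03, a mean of 0.26 ± 0.23 (limma adjusted p = 0.121), and became a positive call at 0.41 ± 0.15 with the surface subtracted (adjusted p = 0.0315). Psma2 was at 0.21 ± 0.28, Psma5 at -0.05 ± 0.18 and Psma1 at -0.13 ± 0.23, each with arrays on both sides of 0.

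In the regulatory particle the calls were a pair of ATPases of the ring that unfolds substrates. Psmc5 was at 0.20, 0.44, 0.31 and 0.46 on replicates 1 to 4, a mean of 0.35 ± 0.12 (SD, n = 4, limma adjusted p = 0.0344). It was printed in the left blocks and fell to 0.08 ± 0.05 with the surface subtracted (adjusted p = 0.393). Psmc4 was at 0.21, 0.55, 0.22 and 0.31, a mean of 0.33 ± 0.16 just inside the threshold (limma adjusted p = 0.0498). It was the only positive call among the 22 members of the right blocks, where 1.39% of all clones were positive, and with the surface subtracted it was at 0.37 ± 0.20, just outside the threshold (adjusted p = 0.0513). Its call ended without any 1 array (adjusted p from 0.0522 to 0.141), as did that of Psmc5 without replicate 1, 3 or 4 (adjusted p = 0.0646, 0.131 and 0.138). Another ATPase, Psmc2, was at -0.08, -0.72, -0.04 and 0.10, near 0 on all arrays but replicate 2 (mean -0.18 ± 0.37, limma adjusted p = 0.365). The ubiquitin receptor Psmd4 was at 0.05 ± 0.07 and the lid subunit Psmd6 at -0.19 ± 0.20 (limma adjusted p = 0.720 and 0.232), and with the surface subtracted Psmd6 was at 0.07 ± 0.18.

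The upstream sequences of the subunits with the highest means, and of Ecpas at the opposite end, are shown because transcription factors can set proteasome genes together. RefSeq's table of build GRCr8 held 44 of the 49 member genes, each with 250 bases before and 50 after the annotated start. Capitals mark the CCAAT box, a common promoter element bound by NF-Y, read here on either strand.
Psmb4, chr2:185134512-185134811, minus strand: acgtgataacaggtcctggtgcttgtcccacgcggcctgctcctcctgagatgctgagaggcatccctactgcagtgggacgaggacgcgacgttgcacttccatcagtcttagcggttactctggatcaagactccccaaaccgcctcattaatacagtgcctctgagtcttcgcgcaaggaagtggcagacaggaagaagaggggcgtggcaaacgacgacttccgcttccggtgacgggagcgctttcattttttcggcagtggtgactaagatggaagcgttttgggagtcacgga
Psmc4, chr1:92485011-92485310, minus strand: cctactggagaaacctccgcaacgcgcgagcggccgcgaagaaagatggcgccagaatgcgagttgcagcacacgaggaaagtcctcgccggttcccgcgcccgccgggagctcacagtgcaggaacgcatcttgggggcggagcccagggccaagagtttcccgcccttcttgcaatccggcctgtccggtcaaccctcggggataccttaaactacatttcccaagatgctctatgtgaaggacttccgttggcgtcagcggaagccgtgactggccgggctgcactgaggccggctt
Psmc5, chr10:91687303-91687602, plus strand: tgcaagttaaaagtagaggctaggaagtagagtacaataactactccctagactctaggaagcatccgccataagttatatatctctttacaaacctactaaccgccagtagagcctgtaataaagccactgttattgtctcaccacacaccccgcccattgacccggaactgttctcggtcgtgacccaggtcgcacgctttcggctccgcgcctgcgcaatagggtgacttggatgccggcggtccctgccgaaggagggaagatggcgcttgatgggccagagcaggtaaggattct
Psmb1, chr1:65134721-65135020, minus strand: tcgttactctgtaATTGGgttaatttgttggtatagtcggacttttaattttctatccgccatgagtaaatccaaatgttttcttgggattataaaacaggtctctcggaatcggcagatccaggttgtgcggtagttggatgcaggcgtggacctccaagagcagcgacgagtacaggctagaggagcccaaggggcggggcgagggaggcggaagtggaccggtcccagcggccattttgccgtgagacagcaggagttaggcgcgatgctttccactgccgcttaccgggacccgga
Ecpas, chr5:78509028-78509327, minus strand: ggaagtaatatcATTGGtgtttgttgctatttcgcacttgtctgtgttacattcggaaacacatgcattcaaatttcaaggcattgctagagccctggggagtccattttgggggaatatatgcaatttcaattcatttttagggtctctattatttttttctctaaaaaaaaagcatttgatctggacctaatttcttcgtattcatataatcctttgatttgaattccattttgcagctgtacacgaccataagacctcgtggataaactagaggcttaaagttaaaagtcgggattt
Neither the CCAAT box nor the letters TGACNNNGC, the core of the antioxidant response element bound by the proteasome gene activators Nfe2l1 and Nfe2l2, occurred in the windows of Psmb4, Psmc4 and Psmc5. Psmb1 and Ecpas each had 1 CCAAT box, on the reverse strand. Over 13 subunit genes 7 windows (53.8%) held CCAAT and 1 (7.69%, Psmd1) held TGACNNNGC, against 37.5% and 12.1% of all 33469 windows of this length. These 13 lacked Psmd6 and took in Psmd1, Psma4 and Psmc1, whose clones were not tested. Psma4 and Psmc1 were among those with CCAAT. Over all 44 member genes the shares were 34.1% for CCAAT and 13.6% for TGACNNNGC, on the opposite sides of those backgrounds. The half-site AGGTCA of nuclear receptors lay in 15.9% of member windows and 16.2% of all windows. An exact direct repeat of that half-site with 1 base between, the form of the PPARα response element searched here, lay in none of the 44 member windows. It lay in only 0.0538% of all windows, so its absence from 44 says nothing about the members. Response elements that depart from these exact letters or lie outside the windows were not searched. All 4 motifs were searched on both strands, and each repeat also counts as a half-site. Ecpas had the lowest share of G and C among the 44, 35.7%, beside a median of 60.5% for members and 51.7% for all windows. The motif shares were not adjusted for this difference in base content. Members were counted by 1 window per gene and the background by every listed window.

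The activators and the assembly factor gave no call. Psme1, a subunit of the interferon-inducible activator that opens the core particle, was at -0.40, -0.07, -0.22 and -0.19 on replicates 1 to 4, below 0 on each array, with a mean of -0.22 ± 0.14 (SD, n = 4, limma adjusted p = 0.131). With the surface subtracted it was at -0.33 ± 0.17 (adjusted p = 0.0551). Psme3, the nuclear activator, was at -0.06 ± 0.26 and Psme4, a large single-chain activator, at -0.01 ± 0.18. Psmg4, a chaperone of core assembly, was at 0.00, -0.87, 0.02 and 0.37, low on replicate 2 alone (mean -0.12 ± 0.53, limma adjusted p = 0.660).

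The E2 enzymes carry activated ubiquitin or a ubiquitin-like protein. Of 7 tested clones, 2 were negative calls and 1 was positive, beside 15.0% and 13.6% of all clones, and 4 were not called. Ube2m, the E2 that attaches NEDD8 to cullins and so activates their ligases, was at -0.33, -1.27, -1.26 and -0.64 on replicates 1 to 4. It was below 0 on each array, with a mean of -0.88 ± 0.47 (SD, n = 4) or 1.83-fold (limma adjusted p = 0.0126). The call held with the surface subtracted (-0.98 ± 0.41, adjusted p = 0.0156) and without each array (means from -1.06 to -0.74, adjusted p from 0.0217 to 0.0467). Ube2k, which builds the chains that target proteins to the proteasome, was at -0.06, -0.65, -0.58 and -0.67. Replicate 1 stood near 0 and the other arrays together, for a mean of -0.49 ± 0.29 (limma adjusted p = 0.0285). The call of Ube2k ended with the surface subtracted (-0.25 ± 0.28, adjusted p = 0.172) and without replicate 3 or 4 (adjusted p = 0.113 and 0.108). Ube2q1 was at 0.19, 0.42, 0.65 and 0.33, positive on each array (0.40 ± 0.19, limma adjusted p = 0.0319), and at 0.16 ± 0.15 with the surface subtracted (adjusted p = 0.206). Leaving out replicate 1, 3 or 4 ended this call (adjusted p = 0.0569, 0.170 and 0.0902).

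The E2 enzymes that were not called included both signs. Ube2g1, an E2 of degradation from the endoplasmic reticulum, was at 0.21 ± 0.12 and above 0 on each array. Ube2b, which ubiquitinates histones, was at -0.23 ± 0.36, Ube2l3, a partner of the HECT and RBR ligases, at -0.14 ± 0.43 and Ube2d3, an E2 that serves many ligases, at -0.17 ± 0.27. Each of these 3 was lowest on replicate 2, at -0.76, -0.79 and -0.55. With the surface subtracted Ube2d3 became a negative call (-0.39 ± 0.15, adjusted p = 0.0342). The U-box ligase Ube4a, which extends ubiquitin chains, was at 0.02 ± 0.13 (limma adjusted p = 0.910), and its sign changed with the surface subtracted (-0.04 ± 0.07).

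Cul3, the scaffold of ligases that recruit substrates through BTB proteins, was present as 2 clones that disagreed. The clone in the left blocks was at -0.50, -0.65, -0.57 and -0.87 on replicates 1 to 4, below 0 on each array, a mean of -0.65 ± 0.16 (SD, n = 4) or 1.57-fold (limma adjusted p = 0.00742). It held with the surface subtracted (-0.84 ± 0.21, adjusted p = 0.00687) and without each array (means from -0.70 to -0.57, adjusted p from 0.00902 to 0.0322). The clone in the right blocks was at -0.05, 0.47, -0.11 and -0.13, with a mean of 0.04 ± 0.29 (limma adjusted p = 0.813). With the surface subtracted that clone was at 0.26 ± 0.18 (adjusted p = 0.0937), so that the pair lay further apart there, and on each array the left clone was the lower one. Both clones averaged gave -0.30 ± 0.17 for the gene, which was not called (limma adjusted p = 0.0636). Cul2, the scaffold of the von Hippel-Lindau ligase, was at -0.23 ± 0.16 (limma adjusted p = 0.127).

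F-box proteins bring substrates to cullin ligases. Of 9 tested clones, 1 was a negative and 1 a positive call, beside 15.0% and 13.6% of all clones, and 7 were not called. Fbxo7, which also binds the proteasome and Parkin, was at -0.58, -0.42, -0.46 and -0.95 on replicates 1 to 4. All 4 values were below 0, and the mean of -0.60 ± 0.24 (SD, n = 4) was a 1.52-fold difference (limma adjusted p = 0.0126). It held with the surface subtracted (-0.66 ± 0.29, adjusted p = 0.0221) and without each array (adjusted p from 0.0111 to 0.0497). Fbxo8 was at 0.30, 0.27, 0.71 and 0.53, positive on each array (0.45 ± 0.21, limma adjusted p = 0.0245). It was printed in the left blocks, and with the surface subtracted it was at 0.13 ± 0.06 (adjusted p = 0.212). Fbxo8 was not called once replicate 1, 3 or 4 was left out (adjusted p = 0.0578, 0.133 and 0.0934). The 7 others had means between -0.23 for Fbxw2 and 0.21 for Fbxo41. Fbxl5, the iron sensor that directs iron regulatory proteins to degradation, was at -0.03 ± 0.20.

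The ubiquitin-specific proteases, which remove ubiquitin, had a median of -0.37 over 7 clones. Their calls were 1 negative and 1 positive, beside 15.0% and 13.6% of all clones. Usp9x was at -0.21, -0.98, -0.36 and -0.36 on replicates 1 to 4, below 0 on each array and lowest on replicate 2 (-0.48 ± 0.34, SD, n = 4, limma adjusted p = 0.0388). Usp13 was at 0.12, 0.44, 0.27 and 0.58, positive on each array (0.35 ± 0.20, limma adjusted p = 0.0468). Neither call held with the surface subtracted (-0.26 ± 0.45 and 0.21 ± 0.11, adjusted p = 0.281 and 0.0930). The call of Usp9x ended without replicate 1, 3 or 4 (adjusted p = 0.0646, 0.0981 and 0.0902) and that of Usp13 without any 1 array (adjusted p from 0.0574 to 0.189). Usp30, a protease of the mitochondrial outer membrane that restrains mitophagy, spread most of all members. It was at 0.86 on replicate 1 against -0.89, -1.26 and -1.25 on replicates 2 to 4, for a mean of -0.64 ± 1.0 (limma adjusted p = 0.174). Without replicate 1 it was a negative call at -1.13 (adjusted p = 0.0172). Usp48 was at -0.37 ± 0.28, Usp11 at -0.38 ± 0.33, Usp7, which stabilises Mdm2 and p53, at -0.15 ± 0.14 and Usp32 at 0.09 ± 0.19, none of them called.

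**Figure D2:**
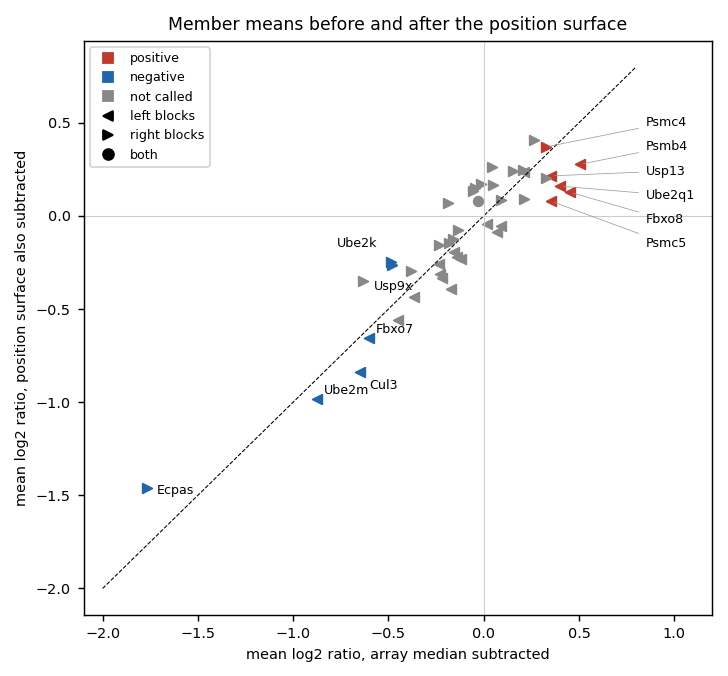
Mean log2 ratio of the 44 tested member clones with the array median subtracted (horizontal) against the mean with the position surface also subtracted (vertical), with colours for the call on the horizontal scale and triangles pointing to the printing side. The 6 positive calls lie at 0.08 to 0.37 on the vertical axis, and Ecpas, Ube2m, Cul3 (left clone) and Fbxo7 stay at -0.66 or below.

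The printing side divided the positive calls more than the negative ones. In the left blocks 5 of 21 members (23.8%) were positive and 3 (14.3%) negative, beside 25.5% and 8.13% of all clones printed there. In the right blocks 1 of 22 (4.55%) was positive and 3 (13.6%) negative, beside 1.39% and 22.1% of all clones there. Of the 4 negative calls that held with the surface subtracted, those of Ube2m, Cul3 and Fbxo7 were in the left blocks and that of Ecpas in the right ones. Each of these 4 clones had a single spot, so no repeated spot could be compared. Of the 6 positive calls, 4 were on clones with more than 1 spot. The part of the slide position in the single ratios was not tested beyond the subtraction.

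Repeated spots of one clone agreed within a block and less so between blocks. Of the members, 23 clones had at least 2 spots measured on all 4 arrays, giving 28 pairs. The 22 pairs in one block differed by a median of 0.07 (log2) over 88 comparisons, while the SD over arrays of these 23 clones had a median of 0.21. The 6 pairs in different blocks, from 3 clones, differed by a median of 0.30. Psmc3ip differed most. One of its spots was at -0.60, -1.21, -0.33 and -2.57 on replicates 1 to 4 and the other at 0.10, 0.38, 0.25 and 0.37, opposite in sign on each array, and their average of -0.45 ± 0.46 was not called (limma adjusted p = 0.0795). Spots of Fbxl5 differed most on replicate 2, at -0.68 and 0.04. Those of Ube2d3 in one block differed by 0.93 on replicate 1.

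**Figure D3:**
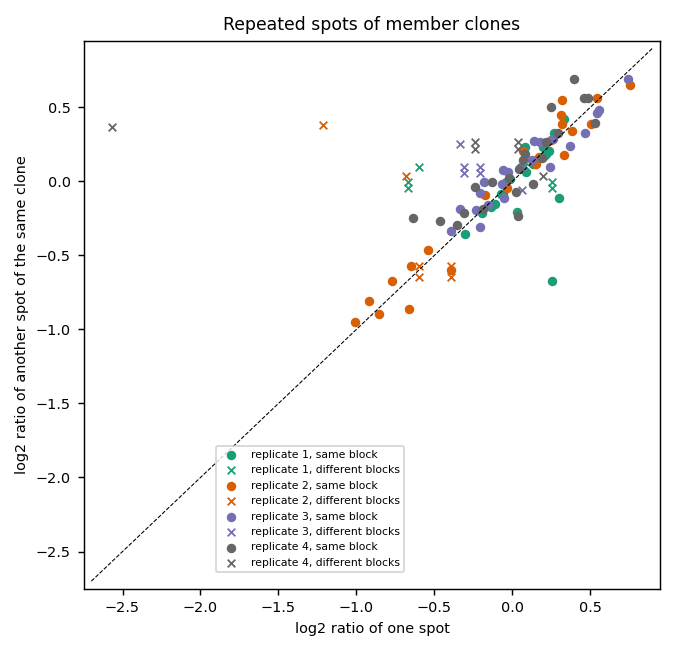
Log2 ratio of one spot against another spot of the same member clone, for 28 pairs on 4 arrays (colours), with pairs in one block as circles and pairs in different blocks as crosses; the dashed line marks equality. Circles keep near the line with a median difference of 0.07, and the largest departure, 2.94, is a pair of Psmc3ip spots on replicate 4.

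Replicate 2 held the lowest value for 14 and the highest for 16 of the 44 members, 68.2% together, near the 69.6% of all clones. On replicate 2 some low values were alike on both spots of a clone, though those of Fbxl5 and Psmc3ip were not. Psmc2 was at -0.77 and -0.67 on its 2 spots of replicate 2, Psmg4 at -0.92 and -0.81, Ube2b at -0.67 and -0.86 and Fbxo38 at -0.54 and -0.47. Usp11 was at -0.86 and -0.90 there and Usp9x at -1.01 and -0.95. On the other arrays the spots of Psmc2 lay between -0.09 and 0.14. Each pair named as alike lay in one block, while the spots of Fbxl5 and Psmc3ip lay in different blocks. A shared slide position and a shared clone cannot be told apart in that agreement.

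**Figure D4:**
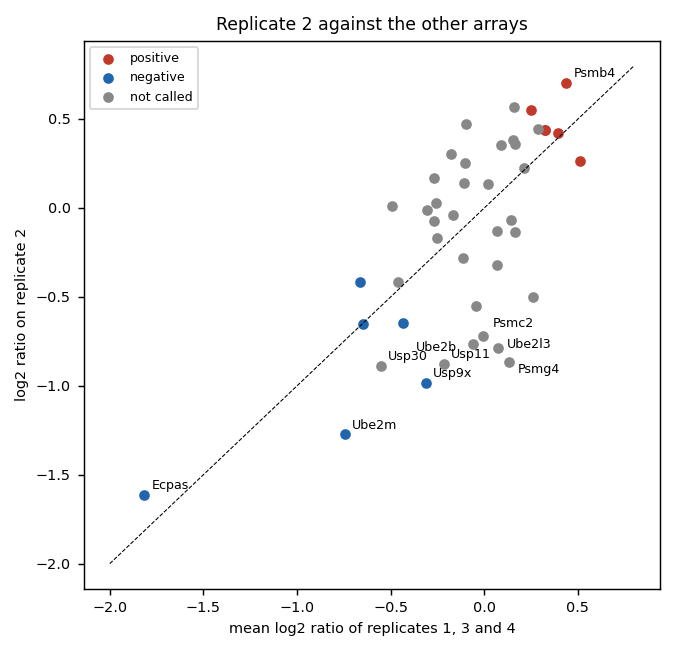
Log2 ratio of the 44 tested member clones on replicate 2 (vertical) against the mean of replicates 1, 3 and 4 (horizontal), coloured by call; the dashed line marks equality. Psmc2, Ube2b, Ube2l3 and Psmg4 lie near 0 on the horizontal axis and between -0.72 and -0.87 on replicate 2, while Ecpas is low on both.

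Of the 50 clones, 6 were not tested. Psma4, Psmc1 and Ube2s had no ratio on any array. Psmd1, Cul4a and Fbxo6 had a ratio on 1 or 2 arrays, and these included the extreme values of -7.35 for Psmd1 on replicate 3 and -7.41 for Fbxo6 on replicate 2.

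Other genes of the pathway, from a separate list of 201 symbols, were on the arrays as 50 genes, 41 of them tested in 46 clones. Of the 46, 5 were positive, 9 negative and 32 not called, with a median of -0.11. That is 10.9% positive and 19.6% negative, beside 13.6% and 15.0% of all clones. With the surface subtracted 5 of the 9 negative calls held and no positive one did. Without each array in turn, Senp6 and one clone of Cops7a alone of the 14 calls held throughout. The positive calls were Cand1, which exchanges the adaptors of cullin ligases, at 0.54 ± 0.21 (SD, n = 4, limma adjusted p = 0.0142), and Elob, an adaptor subunit of cullin ligases, at 0.53 ± 0.17. They also took in Vcp, the ATPase that extracts ubiquitinated proteins, at 0.39 ± 0.15, the small proteasome subunit Sem1 at 0.38 ± 0.14 and a clone of the HECT ligase Nedd4 at 0.37 ± 0.10. After the surface was subtracted these 5 were at 0.26, 0.16, 0.13, 0.23 and 0.23 in this order. All 5 were printed in the left blocks, and another clone of Nedd4 in the right blocks was at -0.08 ± 0.15 and not called.

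The negative calls were led by Senp6, a protease that trims SUMO chains, at -1.52, -0.93, -2.37 and -1.02 on replicates 1 to 4 (-1.46 ± 0.66, SD, n = 4, limma adjusted p = 0.00668). Cops7a, a subunit of the COP9 signalosome that removes NEDD8 from cullins, was negative in both of its clones, at -1.19 ± 0.42 and -0.42 ± 0.21 (limma adjusted p = 0.00449 and 0.0287). The membrane ligase Marchf2 was likewise negative in both clones, at -0.72 ± 0.47 in the left and -0.60 ± 0.29 in the right blocks. Ubl4a, which helps to sort tail-anchored proteins, was at -0.66 ± 0.35 and the peptidase Thop1 at -0.42 ± 0.20. The ligase Arih1 was at -0.68 ± 0.44 in one clone and at -0.15 ± 0.14, not called, in another. The transcription factor Nfe2l2 was at -0.15, -0.41, -0.42 and -0.45, a mean of -0.36 ± 0.14 (limma adjusted p = 0.0344). The calls that held with the surface subtracted were Senp6 (-1.11 there), the Cops7a clone at -1.19 (-0.96), the Marchf2 clone at -0.72 (-0.83), Ubl4a (-0.59) and Nfe2l2 (-0.33). Those that did not were the other clones of Cops7a (-0.28) and Marchf2 (-0.41), Thop1 (-0.37) and Arih1 (-0.36). Nfe2l1, the factor best known for driving proteasome genes, was at -0.53 ± 0.50 and Nedd8 at 0.31 ± 0.28, neither of them called (limma adjusted p = 0.0590 and 0.0937).

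Ratios give no levels, so the tissue could not be checked against its markers by abundance. Of 14 clones of 13 hepatocyte markers, 2 were negative calls and 12 means were below 0, with medians of -0.12, -0.82, -0.22 and -0.14 on replicates 1 to 4. Leukocyte markers, listed beside the interferon-linked Psme1, had 1 positive and 2 negative calls among 7 clones, and red cell markers 2 negative calls among 3. Stellate and fibroblast markers had 4 positive and 2 negative calls among 12, and endothelial and bile duct markers 1 positive call each among 2, beside 13.6% positive and 15.0% negative over all clones. No positive call of these marker lists held with the surface subtracted. The part of these shifts in the member ratios was not tested.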

How the data were processed

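Total liver RNA of treated rats, taken as a different rat on each array, was compared with one control pool on 4 two-colour arrays. The deposited table names no unit, and the values the authors deposited were read as log10 ratios of the channels, because raising 10 to them gave whole thousandths (within 0.02) for 99.99% to 100.0% of spots per array, and raising 2 to them did so for 2.72% to 3.07%. How the authors scanned, corrected and normalized the arrays is not given in the sources used here. The most repeated value of each array, on 1171 to 1189 spots, was read as a missing ratio.

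Values were converted to log2. Symbols come from the platform's probe table, updated through Entrez numbers (5140 probes; 29 kept theirs, 83 with several and 2436 unlisted were not named). Spots of one listed clone were averaged, each array was centred on its median, and the mean of each clone measured on every array was tested against 0 in R 4.3.3 with limma 3.58.1. On simulated data for this comparison (4704 clones, 100 shifted by 0.5 and 100 by 1 in log2) the test called 49% and 81% of the shifted clones. None had the wrong sign. The simulated noise was independent between clones, with no effect of slide position and no array that stood apart. These shares therefore need not hold for the real arrays. The number of arrays limits the precision, and no intensity shows which ratios come from dim spots.

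The position surface was a robust loess (span 0.05, degree 1, 4 iterations) over the slide, laid out from the values as 8 blocks (31 by 31 spots), 2 across and 4 down. Members, lists and motifs were chosen with earlier results of these data known. Named were the called members, in a class without a call the member with the smallest p, genes with 2 clones, Ecpas and the called clones of the wider list; other members were added as description. Psmc3ip was moved out of the ATPase class after the table was read. Alternatives were other normalizations, position corrections, row units, missing-value rules, priors, array weights and leaving out each array.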

Additional observations from a re-analysis of the deposited data

Results flagged for a closer look

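Of 44 member clones, 6 had one array far from the other 3, by Dixon's criterion on the gap over the range. Chance passes it in about 1 in 20 groups if all arrays are alike. They were not, since replicate 2 held the lowest or highest value in 69.6% of all clones. The share of all clones that pass was not counted, so the 6 cannot be read as an excess. Replicate 2 was the distant array for Cul3 in its right clone (0.47, others -0.13 to -0.05), Psme4 (0.25, others -0.14 to -0.07), Ube2g1 (0.38, others 0.13 to 0.17) and Ube2l3 (-0.79, others 0.01 to 0.16), all in log2 ratio. Replicate 1 was the distant array for Fbxw2 (-0.48, others -0.17 to -0.11) and Ube2k (-0.056, others -0.67 to -0.58). Among the 14 called clones of the wider ubiquitin list, Nfe2l2 alone was of this kind, with -0.15 on replicate 1 and -0.45 to -0.41 on the others.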

How the results depend on the processing

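Counts are positive and negative calls by limma. Members had 6 and 6, the wider ubiquitin list 5 and 9, and the member median was -0.087. With the position surface subtracted these were 1 and 5, 0 and 7, and -0.063; with replicate 2 also left out, 4 and 8, 4 and 5, and -0.0025. Block medians gave 5 and 9, 3 and 9, and -0.027. Keeping the most repeated value gave 8 and 4, 10 and 5, and -0.045. Each spot as a row gave 7 and 10, and 10 and 13; array weights 7 and 11, and 12 and 15; quantile normalization 7 and 8, and 9 and 13; one spread 7 and 7, and 9 and 10. A 1.5-fold minimum gave 0 and 4, and 0 and 6. The median was -0.11 without centring and -0.12 with a row per gene. Shares over all clones moved as well, from 13.6% positive and 15.0% negative to 2.85% and 11.3% with the surface, 9.16% and 13.1% with the surface and no replicate 2, 8.08% and 13.3% with block medians, 17.5% and 8.14% with the repeated value kept, 13.6% and 15.4% by spot, 24.4% and 25.7% with array weights, 17.2% and 18.4% with quantiles, 16.5% and 15.9% with one spread, and 1.70% and 7.99% past 1.5-fold. Leaving out each array gave 0 to 4 positive and 4 to 9 negative member calls, 0 to 9 and 3 to 11 on the wider list, and medians from -0.099 to -0.052.

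Signs turned for means near 0. With the surface subtracted, members outside the named set turned too. These were Psma5 (to 0.15), Psme3 (0.13), Psme4 (0.17), Fbxl5 (0.078), Fbxo15 (-0.052) and Fbxo38 (-0.086). The clones that follow are of the named set. Psmd6 was at 0.072 with the surface subtracted. Ube4a was at -0.0072 without centring, -0.043 with the surface, -0.013 with the surface and no replicate 2, -0.19 with block medians, -0.0055 with each spot as a row, and -0.030 to 0.067 without each array. The right Cul3 clone was at -0.30 in a row per gene, which averages both clones, -0.074 with array weights and -0.097 to 0.10 without each array. Psmg4 was at 0.044 with array weights and -0.28 to 0.13 without each array. The cause was not tested, beyond what a setting's own construction shows. No paired analysis was possible because the arrays form 1 group. No intensities are given, so the signal over background behind each ratio is unknown.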
